A study of Mus musculus with 18 samples.

Results

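The genes described here are 34 transcripts of the G2 phase and mitosis, taken from a list of symbols that covers CDK1 with its cyclins, the Aurora kinases, the spindle checkpoint, the kinetochore, mitotic kinesins, spindle proteins and chromosome proteins. Of these, 33 had a row of their own among the 23521 rows of the expression table that name 1 gene (22180 genes in all). Each of the 33 had exactly 1 row. Ccnb1, the cyclin B1 gene, is the exception: no row names it alone, so it was not analysed here.

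Total RNA from epidermal sheets of shaved back skin of female mice was hybridised to Affymetrix arrays. The knockout (KO) mice were AhR-/- animals of the line B6.129-AhRtm1Bra/J, which lack the aryl hydrocarbon receptor in every cell from the germline on. The wild-type (WT) mice were their AhR+/+ littermates, and both had the genetic background B6;129. The skin was taken unstressed (0 h), or 6 h or 24 h after tape stripping, a mechanical injury in which adhesive film is pulled off the skin to remove the outer cornified layers. Each of the 6 groups held 3 arrays, 18 in all, and whether each came from its own animal is not stated, so that p-values measure the spread between these arrays. Because AhR is missing in the whole animal, a difference between KO and WT is not tied to keratinocytes by the design. The deposited expression values are logarithms, which were read as log2, and in each row the median over the 18 arrays is 0. A value of 0 is therefore a gene's own middle value, levels of different genes cannot be compared, and whether a marker is absent from the tissue cannot be read.

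The genes of this list act from the end of DNA replication to the separation of daughter cells. CDK1 with cyclins A and B starts mitosis, the Aurora and Polo-like kinases build the spindle and correct its attachments, and the spindle checkpoint holds back the anaphase-promoting complex until every kinetochore is attached. In the epidermis most dividing cells lie in the basal layer and in the hair follicle, and wounding and tape stripping are known to raise their division. Most genes of the list are repressed in resting cells and activated late in the cell cycle through 2 short promoter motifs, the CHR element and the CCAAT box, which bind the DREAM and MYB-MuvB complexes and the factor NF-Y respectively.

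Promoter windows of RefSeq (build GRCm38.p6), from 250 bases before to 50 after an annotated start, were at hand for 28 of the 34 genes in 29 windows. The motifs searched on both strands were the CHR as TTTGAA, which on the other strand reads TTCAAA, or as the palindrome TTCGAA, and the CCAAT box as CCAAT, which reads ATTGG on the other strand. Matches of the CHR and the CCAAT box can overlap by at most 1 letter. The CHR letters stood in 23 of the 29 windows (79.3%), against 19.2% of 32851 windows of all genes. The CCAAT letters also stood in 23 of the 29 (79.3%), against 37.4% of all windows, and both motifs together in 72.4% against 7.52%. The windows of 3 genes that were higher in the KO at 24 h (Cdk1, Cdc20, Ube2c) and of 3 that were not (Kif11, Top2a, Mki67) are shown in part, with motif letters in capitals, because they carry the same 2 motifs. Each is 110 bases long and ends 1 base before the start, except that of Mki67, which covers bases 200 to 91 before it.
Cdk1, chr10:69352913-69353022 (minus strand): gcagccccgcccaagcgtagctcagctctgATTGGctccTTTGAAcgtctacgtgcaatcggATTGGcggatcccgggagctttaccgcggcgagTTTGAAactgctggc
Cdc20, chr4:118437344-118437453 (minus strand): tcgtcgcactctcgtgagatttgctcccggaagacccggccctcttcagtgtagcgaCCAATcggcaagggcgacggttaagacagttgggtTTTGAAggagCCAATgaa
Ube2c, chr2:164769819-164769928 (plus strand): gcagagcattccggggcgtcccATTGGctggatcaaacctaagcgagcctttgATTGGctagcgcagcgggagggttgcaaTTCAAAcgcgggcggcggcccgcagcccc
Kif11, chr19:37376272-37376381 (plus strand): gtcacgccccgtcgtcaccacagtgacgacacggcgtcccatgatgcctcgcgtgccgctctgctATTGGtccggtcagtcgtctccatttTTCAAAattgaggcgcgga
Top2a, chr11:99024190-99024299 (minus strand): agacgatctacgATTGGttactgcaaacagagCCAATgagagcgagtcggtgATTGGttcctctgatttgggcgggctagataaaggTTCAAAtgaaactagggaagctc
Mki67, chr7:135716470-135716579 (minus strand): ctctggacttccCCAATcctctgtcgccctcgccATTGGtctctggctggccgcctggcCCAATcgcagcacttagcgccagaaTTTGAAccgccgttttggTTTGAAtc
Among the genes called higher at 24 h in the KO, 7 of 9 windows held the CHR letters and 7 of 9 the CCAAT letters. Among the other measured genes the counts were 16 and 15 of 19 windows. A match is a description of letters in the window and not evidence of a bound factor.

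The mean over the 33 genes was highest in the KO at 24 h, at 0.25 ± 0.18 (SD, n = 3), and lowest in the KO at 6 h, at -0.29 ± 0.10 (SD, n = 3). In the WT it was 0.00 ± 0.32 at 0 h, -0.04 ± 0.22 at 6 h and 0.18 ± 0.12 at 24 h, and in the unstressed KO 0.01 ± 0.08 (SD, n = 3 each). Gene by gene, the highest group mean lay in the KO at 24 h for 17 of the 33 genes, and the lowest in the KO at 6 h for 27. Arrays of 1 group differed in the list as a whole. In unstressed WT skin, replicate 1 averaged 0.29 over the genes and was the highest of its group for 27 of 33, while replicate 2 averaged -0.34 and was the lowest for 32. In WT skin at 6 h, replicate 1 averaged -0.28 and was the lowest for 27, beside 0.06 and 0.12 for the other arrays. In the KO at 24 h, replicate 1 averaged 0.41 and replicate 3 averaged 0.06. These are bulk tissue values, in which fewer cells in G2 and mitosis and less RNA per such cell cannot be told apart.

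**Figure D1:**
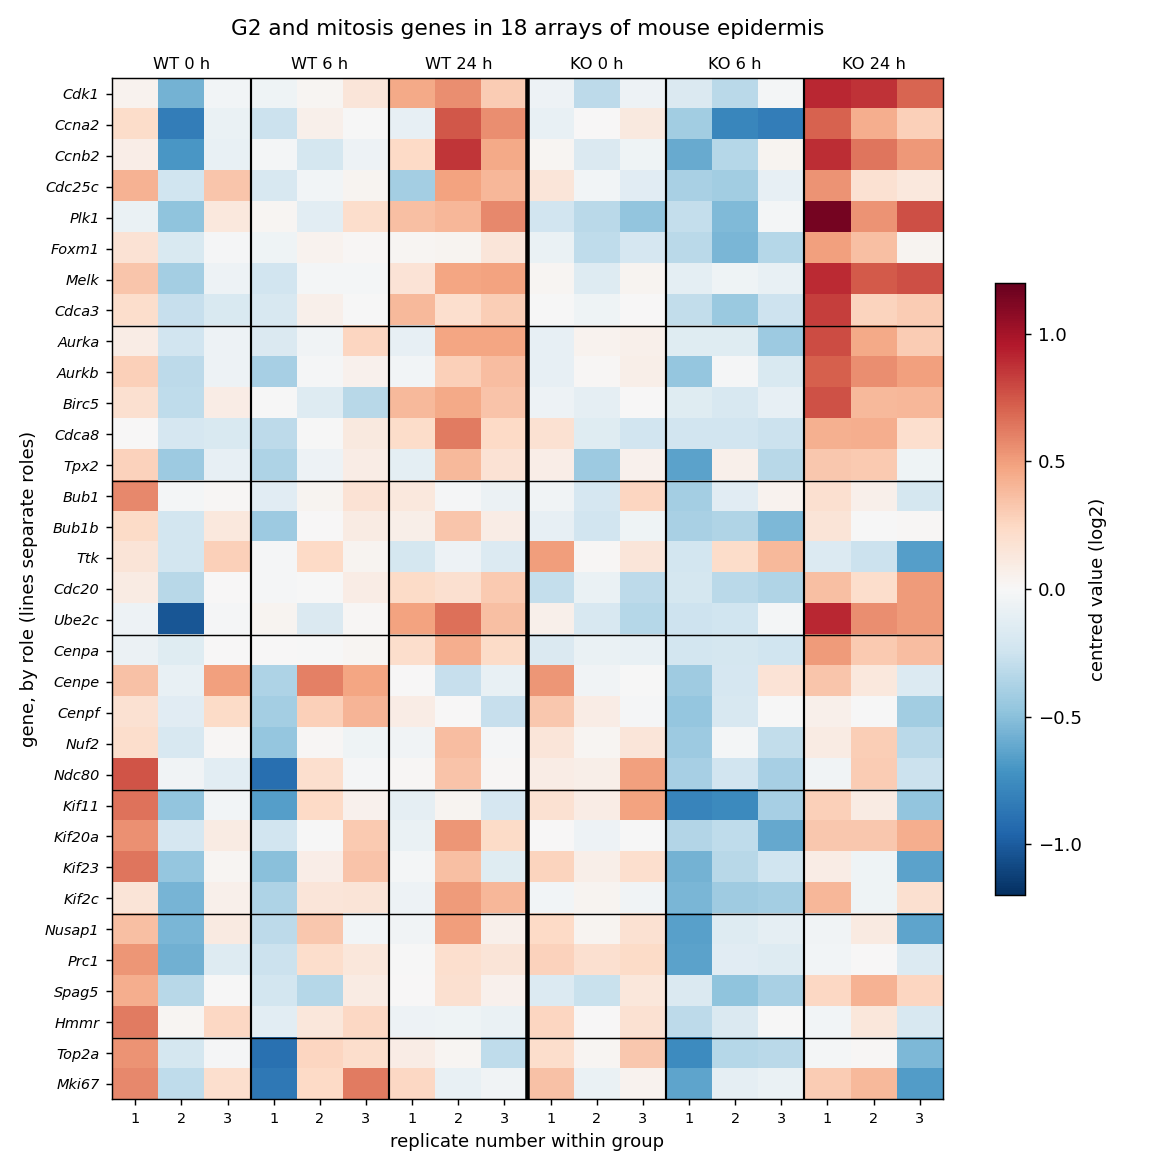
Centred log2 values of the 33 G2 and mitosis genes (rows, grouped by role) in each of the 18 arrays (columns, 3 per group). Most of the upper rows (Cdk1 to Cdca8) are red in the KO at 24 h, and replicate 2 of WT at 0 h is blue in nearly every row.

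At 24 h after stripping, KO epidermis had higher values than unstressed KO epidermis for 11 of the 33 genes, and a lower value for Ttk. Limma called 9.56% of the 23521 rows in this comparison, 3.09% as higher and 6.47% as lower. Among the genes that rose, Cdk1, Ccnb2, Plk1, Foxm1, Melk and Cdca3 were listed with CDK1 and entry into mitosis. The others belong to the Aurora B complex (Aurkb, Birc5), switch on the anaphase-promoting complex (Cdc20, Ube2c) or mark the centromere (Cenpa). The median over the 33 genes was 0.30, against 0.02 over all rows, and 21 of 33 were above 0, against 59.0% of all rows. Groups did not overlap, with KO at 24 h above, for 17 genes, a pattern seen in 15.8% of all rows, and with KO at 24 h below for 3 (Ttk, Prc1 and Top2a), seen in 13.7%.

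The genes listed with CDK1 and entry into mitosis had the highest median of the 7 roles, 0.62, and 6 of 8 rose. Cdk1, the kinase that drives entry into mitosis, read 0.90, 0.87 and 0.70 in the KO arrays at 24 h, and -0.06, -0.31 and -0.06 at 0 h. Every 24 h array lay above every 0 h array, and the difference was 0.97 ± 0.14 (SE, 1.95-fold, 95% confidence interval 0.68 to 1.26, adjusted p = 0.00165). Plk1, the Polo-like kinase that helps activate CDK1 and mature the spindle poles, read 1.15, 0.54 and 0.78 at 24 h, and -0.23, -0.33 and -0.47 at 0 h. Again the groups did not overlap, and its difference of 1.16 ± 0.17 (2.24-fold, adjusted p = 0.00192) was the largest among the 33. Melk, a kinase that is most abundant in dividing cells, read 0.89, 0.73 and 0.78 against 0.02, -0.16 and 0.03, a difference of 0.84 ± 0.14 (adjusted p = 0.00329). Ccnb2, the cyclin B2 gene, differed by 0.75 ± 0.20 (adjusted p = 0.0287). Foxm1, a transcription factor that activates many genes of this list, differed by 0.49 ± 0.11 (adjusted p = 0.0139), although replicate 3 of KO at 24 h read 0.03 beside 0.50 and 0.36. Cdca3, which promotes the degradation of the CDK1 inhibitor WEE1, differed by 0.49 ± 0.14 (adjusted p = 0.0412). The remaining genes of this role did not pass the test. Ccna2, the cyclin A2 gene, differed by 0.47 ± 0.24 (adjusted p = 0.272) and Cdc25c, a phosphatase that activates CDK1, by 0.30 ± 0.21 (adjusted p = 0.458).

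All 5 genes of the Aurora kinases and their partners were above 0, and 2 passed. Aurkb, the kinase of the chromosomal passenger complex, read 0.71, 0.55 and 0.49 at 24 h and -0.10, 0.01 and 0.07 at 0 h, a difference of 0.59 ± 0.16 (adjusted p = 0.0291). Birc5, the survivin subunit of that complex, differed by 0.57 ± 0.12 (adjusted p = 0.0104). Both groups of both genes stood apart without overlap. Cdca8, the borealin subunit, missed the threshold at 0.42 ± 0.13 (adjusted p = 0.0607), as did Aurka, the Aurora A kinase of the spindle poles, at 0.51 ± 0.16 (adjusted p = 0.0634). Tpx2, which activates Aurora A on the spindle, differed by 0.30 ± 0.22 (adjusted p = 0.472).

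The spindle checkpoint and the anaphase switch divided. Cdc20, the activator of the anaphase-promoting complex, read 0.37, 0.21 and 0.51 at 24 h and -0.28, -0.08 and -0.32 at 0 h, a difference of 0.59 ± 0.10 (adjusted p = 0.00395). Ube2c, the ubiquitin-conjugating enzyme of the same complex, read 0.91, 0.56 and 0.51 against 0.06, -0.19 and -0.34, a difference of 0.82 ± 0.21 (1.76-fold, adjusted p = 0.0234). These 2 genes act where the checkpoint ends, and both stood apart from 0 h in every array. Of the checkpoint kinases, Bub1 differed by 0.01 ± 0.17 and Bub1b, which encodes BUBR1, by 0.18 ± 0.13 (adjusted p = 0.982 and 0.468). Ttk, the checkpoint kinase MPS1, was the only gene of the list that fell. It read -0.17, -0.26 and -0.66 at 24 h and 0.50, 0.01 and 0.15 at 0 h, a difference of -0.58 ± 0.17 (95% confidence interval -0.95 to -0.21, adjusted p = 0.0489). That call was lost in 13 of the 17 alternative analyses, among them each one that left out an array, with adjusted p up to 0.186.

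At the centromere and on the spindle, 1 of 15 genes passed. Cenpa, the histone H3 variant that marks centromeres, read 0.51, 0.31 and 0.37 at 24 h and -0.18, -0.08 and -0.09 at 0 h. Its difference of 0.51 ± 0.07 (adjusted p = 0.00135) was smaller than that of Cdk1 but had the smallest error of the list. The outer kinetochore genes gave values around 0 or below, with the NDC80 complex subunits Nuf2 at -0.08 ± 0.17 and Ndc80 at -0.22 ± 0.26. Cenpe, a kinetochore motor, was at -0.07 ± 0.24 and Cenpf, a large coiled-coil protein of the kinetochore, at -0.25 ± 0.20. The kinesins ranged from -0.38 ± 0.26 for Kif23, which works in the spindle midzone, to 0.38 ± 0.18 for Kif20a, which brings the passenger complex there. Between them lay Kif11 at -0.28 ± 0.27 and Kif2c, a microtubule depolymerase, at 0.19 ± 0.19. Among the spindle proteins Spag5, also called astrin, was at 0.40 ± 0.17 (adjusted p = 0.149), whereas Nusap1, Prc1 and Hmmr lay between -0.34 and -0.18. Top2a, the topoisomerase that untangles sister chromosomes, read -0.02, 0.02 and -0.54 at 24 h and 0.21, 0.03 and 0.32 at 0 h, a difference of -0.37 ± 0.27 (adjusted p = 0.477). Mki67, the source of the Ki-67 proliferation antigen, read 0.31, 0.39 and -0.67 against 0.35, -0.08 and 0.04. The 2 groups of Mki67 overlapped and the difference was -0.10 ± 0.35, with a 95% confidence interval from -0.83 to 0.64. Top2a and Mki67, both widely used as proliferation markers, thus did not pass, and the interval of Top2a ran from -0.95 to 0.21.

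**Figure D2:**
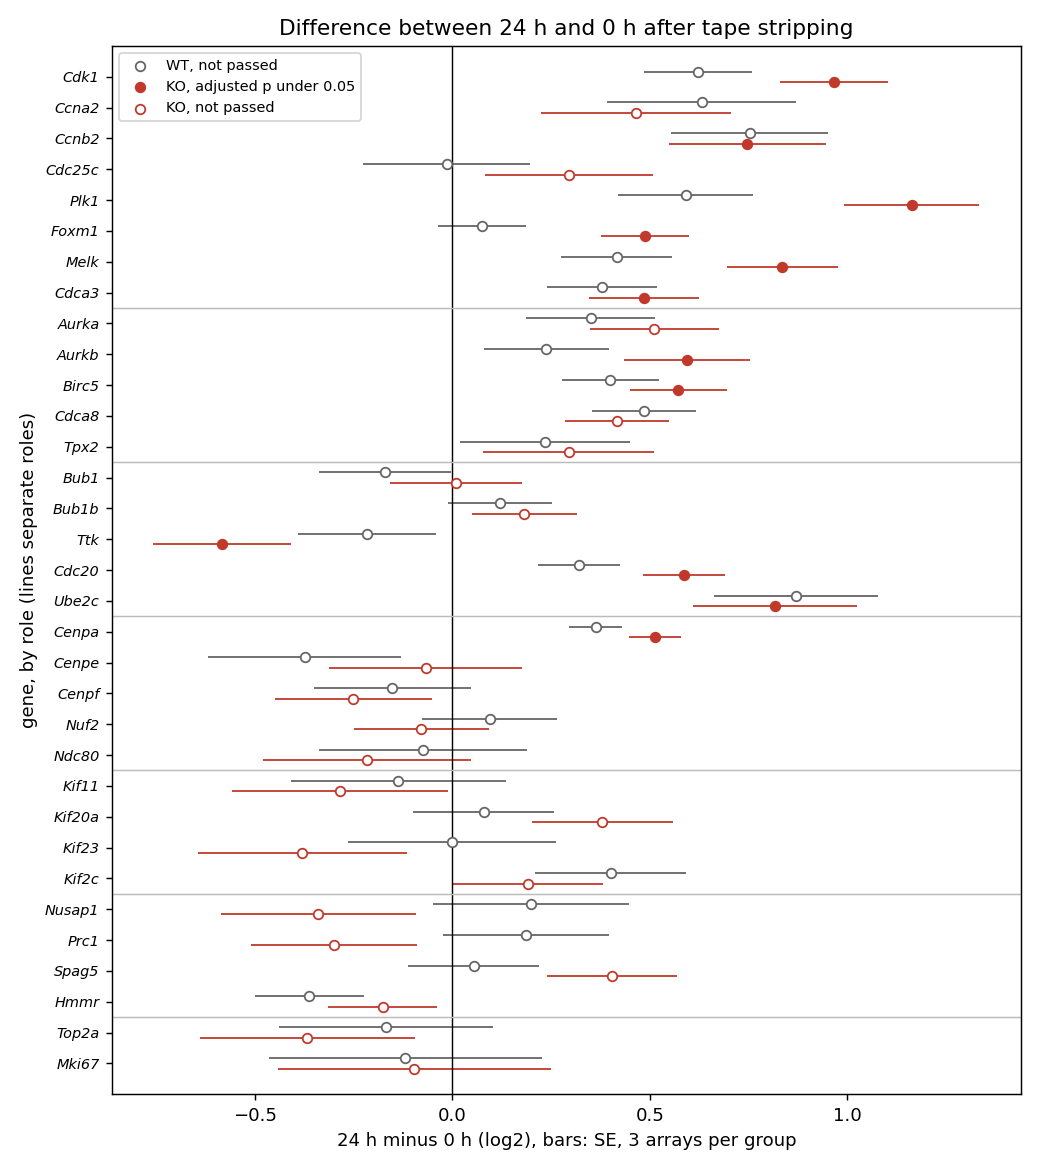
Difference between 24 h and 0 h (log2, horizontal axis) for each of the 33 genes in WT (grey) and KO (red); bars are standard errors from limma, and filled points have an adjusted p under 0.05. The 12 filled points are all in the KO, 11 to the right of 0 and Ttk to the left.

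Some of these calls rested on few arrays. Birc5, Cdc20, Cdk1, Cenpa, Melk and Plk1 were called in all 17 alternative analyses, while Aurkb was lost under each of the 6 that left out an array. Of those 6, Cdca3 and Ccnb2 were called in 2, Ube2c in 3 and Foxm1 in 4. Without replicate 2 of KO at 0 h, without replicate 3 of KO at 0 h, or without replicate 1 of KO at 24 h, the count fell from 12 to 6, 7 and 6. The sample labels carry a 4-digit number of unstated meaning, and 7 of the 18 arrays have one below 3000, none of them at 24 h. Within the arrays numbered from 3000 up, which hold 2 KO arrays at 0 h, 11 genes were called, the median was 0.37, and Cdk1 and Plk1 differed by 1.01 and 1.22.

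In WT skin the same comparison of 24 h with 0 h gave no call among the 33 genes with limma, and 13 at an unadjusted p under 0.05. Over all rows 0.0298% were called, all of them lower. Here and below, shares of all rows called are by adjusted p. No share of all rows is given at an unadjusted p under 0.05, so gene counts at that threshold cannot be compared with all rows. The smallest adjusted p of the list was 0.0558, for Cenpa, which read 0.21, 0.44 and 0.23 at 24 h and -0.07, -0.14 and 0.00 at 0 h, a difference of 0.36 ± 0.07. Cdk1 read 0.45, 0.55 and 0.30 at 24 h and 0.04, -0.57 and -0.03 at 0 h, a difference of 0.62 ± 0.14 (adjusted p = 0.0826). Ube2c read 0.48, 0.66 and 0.36 against -0.06, -1.03 and -0.02, a difference of 0.87 ± 0.21 (adjusted p = 0.0981). For each of these the WT groups did not overlap, and replicate 2 was the lowest of the 0 h arrays. Groups did not overlap for 8 genes with 24 h above (9.31% of all rows) and for Hmmr, a spindle assembly factor, with 24 h below (8.43% of all rows). Kif11, Top2a and Mki67, which did not pass in the KO, were at -0.14, -0.17 and -0.12 in the WT.

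The 11 genes that rose in the KO were all above 0 in the WT, whose arrays are separate, beside 54.9% of all rows above 0. Their median difference was 0.59 in the KO and 0.40 in the WT (range 0.08 to 0.87), and it was larger in the KO for 9 of 11. The lowest in the WT was Foxm1, which read 0.02, 0.04 and 0.14 at 24 h and 0.17, -0.18 and -0.01 at 0 h, with overlap. These genes moved together over the arrays, so they are not 11 separate results. The genes were chosen on the KO values, which favours a larger value there. The median over the 33 genes in the WT was 0.19, fell to -0.01 without replicate 2 of WT at 0 h, and was -0.10 within the arrays numbered from 3000 up, which hold a lone WT array at 0 h. A test of the genotype difference in the 24 h response called none of the 33 genes and 0% of all rows, with 2 genes at an unadjusted p under 0.05. These were Plk1, with a difference of 0.57 ± 0.24 (adjusted p = 0.487), and Foxm1, with 0.41 ± 0.16 (adjusted p = 0.422). The median over the 33 genes was 0.06, with -0.04 without replicate 1 and 0.24 without replicate 2 of WT at 0 h. The 95% confidence interval for Plk1 ran from 0.06 to 1.09, so an equal response in the genotypes is not shown.

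Averaged over both genotypes, 13 genes were higher at 24 h than at 0 h, beside 3.48% of all rows called higher. Each had 6 arrays at each time. The median over the 33 genes was 0.23, or 0.14 without replicate 2 of WT at 0 h. The largest values were 0.88 ± 0.12 for Plk1, 0.84 ± 0.15 for Ube2c and 0.79 ± 0.10 for Cdk1, with adjusted p of 0.000945, 0.00281 and 0.000644. Aurka and Cdca8, which missed the threshold in either genotype alone, were at 0.43 ± 0.12 and 0.45 ± 0.09 (adjusted p = 0.0265 and 0.00646). Of 23 alternative analyses, Cdca8 was called in 23, Aurka and Aurkb in 15 and Foxm1 in 11. Ttk was at -0.40 ± 0.12 and no longer passed (adjusted p = 0.0517).

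**Figure D3:**
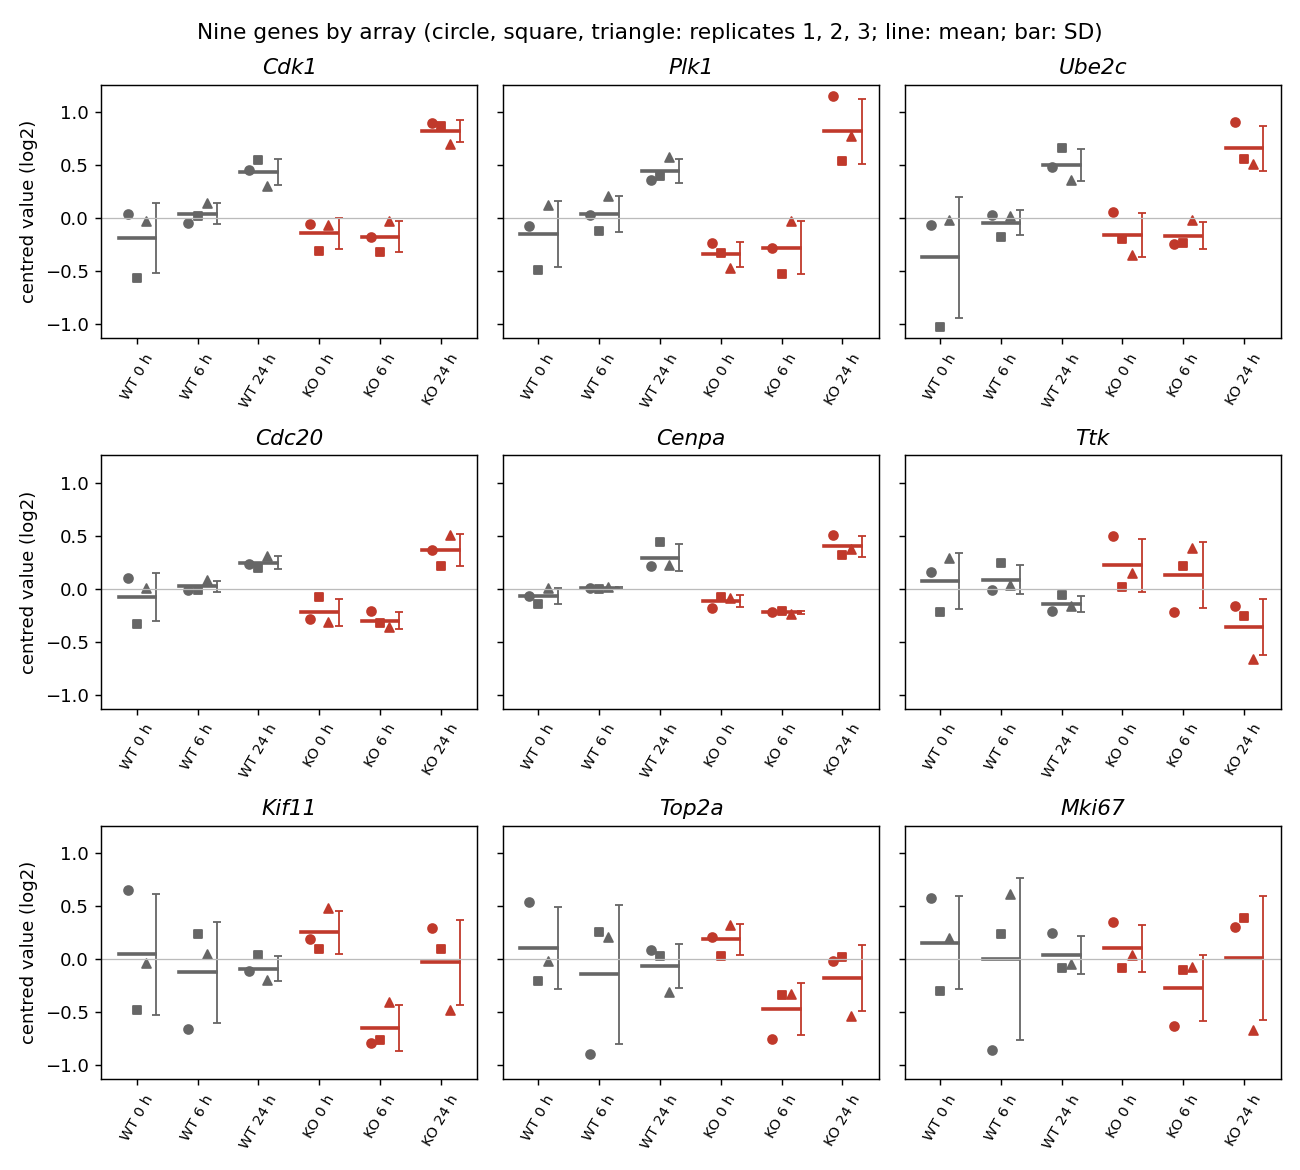
Centred log2 values of 9 genes in each array, by group; lines are means of 3 arrays and bars are standard deviations. Cdk1, Plk1, Ube2c, Cdc20 and Cenpa are highest at 24 h in both genotypes, Ttk is lowest there, and Kif11, Top2a and Mki67 have their lowest mean in the KO at 6 h.

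At 6 h the list lay mostly below its unstressed values in the KO. There 32 of 33 genes were below their 0 h value, with a median of -0.29, against 0.02 over all rows, of which 56.6% were above 0. Limma called none of the 33, while it called 4.98% of all rows. At an unadjusted p under 0.05 there were 10 of the 33, without a share of all rows at that threshold. The lowest value belonged to Kif11, the kinesin-5 motor that pushes spindle poles apart, which read -0.79, -0.76 and -0.40 at 6 h and 0.19, 0.09 and 0.48 at 0 h. Its groups did not overlap, and the difference was -0.90 ± 0.27 (adjusted p = 0.0705). Ccna2 read -0.42, -0.78 and -0.83 at 6 h and -0.08, 0.01 and 0.12 at 0 h, a difference of -0.69 ± 0.24 (adjusted p = 0.111). Top2a differed by -0.66 ± 0.27 and Prc1, which bundles midzone microtubules, by -0.55 ± 0.21 (adjusted p = 0.179 and 0.151). Cdk1, Plk1 and Ube2c, which stood far above 0 at 24 h, were at -0.03, 0.06 and -0.01. For 16 of the 33 genes every 6 h array lay below every 0 h array, beside 12.6% of all rows. By arrays, the mean of the list was -0.40, -0.27 and -0.21 at 6 h and 0.07, -0.08 and 0.04 at 0 h, without overlap. The median was -0.35 within the arrays numbered below 3000, with 1 KO array at 0 h, and -0.41 within those from 3000 up, with 1 KO array at 6 h. In the same arrays the 7 suprabasal keratinocyte genes averaged -0.27 at 6 h and 0.00 at 0 h, with 6 of 7 below 0 and none called by limma (5 at an unadjusted p under 0.05). The 4 Langerhans cell genes went from -0.54 to 0.10, with Mfge8 higher by 1.27, and the 7 neutrophil and monocyte genes from -0.08 to 0.19, with none called and 2 at an unadjusted p under 0.05. The part of these cells in the result was not tested. In the WT the median at 6 h was -0.02 (-0.20 without replicate 2 of WT at 0 h and 0.10 without replicate 1 of WT at 6 h), 16 genes were above and 17 below 0, and no gene had an unadjusted p under 0.05. In that comparison 0% of all rows were called. Within number classes the WT median was 0.25 below 3000 and -0.61 from 3000 up, where each time holds 1 array.

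Between 6 h and 24 h, KO skin gave the largest count of the 13 comparisons. Higher values were called for 14 of the 33 genes, beside 0.625% of all rows called higher and 1.24% called in either direction. The median was 0.62, against 0.00 over all rows, and Ttk, at -0.49 ± 0.17 (adjusted p = 0.194), was the only gene below 0. Ccna2 rose by 1.16 ± 0.24 (2.23-fold, adjusted p = 0.0317), and its arrays at 24 h read 0.71, 0.44 and 0.29, all above those at 6 h. Plk1 rose by 1.10 ± 0.17, Cdk1 by 0.997 ± 0.136 and Ccnb2 by 0.98 ± 0.20. Cenpa read -0.22, -0.21 and -0.24 at 6 h and had the smallest adjusted p, 0.00155, with a rise of 0.62 ± 0.07. The others called were Foxm1, Melk, Cdca3, Aurka, Aurkb, Birc5, Cdca8, Cdc20 and Kif20a, with rises from 0.59 to 0.89. For 19 genes every 24 h array lay above every 6 h array, beside 7.96% of all rows. The number of calls depended on single arrays. It fell to 3 (Cdk1, Plk1 and Cenpa) without replicate 3 of KO at 6 h, to 6 without replicate 3, 7 without replicate 1 and 8 without replicate 2 of KO at 24 h, and to 7 without replicate 2 of KO at 6 h. It was 1 (Melk) when the 2 groups were fitted alone and 0 within the arrays numbered from 3000 up, where 1 KO array at 6 h remains and the median was again 0.62. In the WT the median was 0.26, or 0.13 without replicate 1 of WT at 6 h, and 28 of 33 genes were above 0. Limma called none of the 33, 10 had an unadjusted p under 0.05, and 0% of all rows were called. In the same comparison all 14 hair follicle and matrix genes were above 0, with 7 at an unadjusted p under 0.05 and none called by limma, and their part in the result was not tested. Groups did not overlap for 10 genes with 24 h above and for 1 with 24 h below (Ttk, -0.23), beside 6.46% and 6.41% of all rows.

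Between the genotypes at matched times, limma called none of the 33 genes. At 0 h the median of KO against WT was 0.02, the genes ranged from -0.20 to 0.30, and none had an unadjusted p under 0.05 (0.0978% of all rows called). The median was -0.12 without replicate 2 and 0.16 without replicate 1 of WT at 0 h. It was 0.23 within the arrays numbered below 3000 (1 KO array) and -0.32 within those from 3000 up (1 WT array). At 6 h the KO was lower for 30 of 33 genes, with a median of -0.25, against 0.01 over all rows, of which 52.5% were above 0. There were 7 genes at an unadjusted p under 0.05. By adjusted p, 2.18% of all rows were called. Foxm1 read -0.33, -0.55 and -0.35 in the KO and -0.05, 0.04 and 0.01 in the WT, a difference of -0.41 ± 0.11 (adjusted p = 0.0712). Cenpa read 0.00, 0.00 and 0.02 in the WT, which all lay above the KO arrays, a difference of -0.23 ± 0.07 (adjusted p = 0.0881). Groups did not overlap, with the KO below, for 7 genes, beside 10.3% of all rows. Without replicate 1 of WT at 6 h, 1 gene was called (Bub1b, lower). The median was -0.32 within the arrays numbered below 3000 and -0.13 within those from 3000 up, where each genotype holds 1 array. The suprabasal keratinocyte genes had lower means in the KO at 6 h too, 7 of 7 below 0 with Sbsn called at -0.25. Of 8 basal keratinocyte genes, 5 were below 0 and 3 above, with Krt15 and Lamb3 called at -0.61 and -0.68. Of 7 epidermal T cell genes, 5 were below 0 and 2 above, with 4 called lower. Of 7 wound-responsive keratinocyte genes, 6 were above 0 and 1 below, with Krt6b called higher. The part of these cells in the result was not tested. At 24 h the median was 0.08 and 4 genes had an unadjusted p under 0.05 (0.017% of all rows called by adjusted p). Those were Melk, Cdk1, Aurkb and Plk1, at 0.43 ± 0.14, 0.39 ± 0.14, 0.38 ± 0.16 and 0.38 ± 0.17, with adjusted p from 0.605 to 0.728. The median at 24 h was -0.0064 without replicate 1 of KO at 24 h and 0.17 without replicate 3 of that group. Groups did not overlap, with the KO above, for 4 genes, beside 6.36% of all rows.

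Tests of how the responses differed between genotypes called no gene of the list. For the 6 h response, KO minus WT was below 0 for 32 of 33 genes with a median of -0.22, 2 genes (Ccna2 and Prc1) had an unadjusted p under 0.05, and 0.731% of all rows were called. That median was -0.07 without replicate 2 and -0.36 without replicate 1 of WT at 0 h. It was -0.49 within the arrays numbered below 3000 and 0.16 within those from 3000 up, but both rest on groups of 1 array: KO at 0 h in the former, and WT at 0 h, WT at 6 h and KO at 6 h in the latter. For the change from 6 h to 24 h, KO minus WT was above 0 for 30 of 33 genes with a median of 0.33. There 8 genes had an unadjusted p under 0.05, among them Foxm1 at 0.63 ± 0.16 (adjusted p = 0.597) and Cdk1 at 0.60 ± 0.19. By adjusted p, 0% of all rows were called. The genes of the list moved together over the arrays, so counts of direction, here and above, are not separate results.

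The 33 genes moved together over the 18 arrays, with exceptions. Of 528 pairs, 493 had a Pearson correlation above 0, with a median of 0.58. The highest was 0.93, for Melk with Aurkb, and the lowest -0.64, for Ttk with Cdc20. Ttk was also the only gene whose correlation with the mean of the others was below 0, at -0.12, while Kif2c (0.88), Tpx2 (0.87) and Bub1b (0.87) followed that mean most closely. All pairs share the same arrays, so these are descriptions. The 10 genes outside the list that were most like its mean, with Pearson correlations from 0.94 to 0.82 over 18 arrays, were Racgap1, Prr11, Dlgap5, Dpp4, Cit, Fanci, Iqgap3, Kif22, Pbk and Camkv. Racgap1, the partner of Kif23 in the spindle midzone, stood at 0.94, and Prr11 came next at 0.89.

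The genes that rose at 24 h were mostly short ones. Gene span, from the first to the last annotated base in RefSeq (GRCm38.p6), was examined after the values had been seen. Among the 11 shortest genes (up to 13.9 kb), the median difference of 24 h against 0 h in the KO was 0.57 and 9 were called higher. Among the 11 of middle span it was 0.19 with 1 called higher (Cdk1, 17.8 kb). Among the 11 longest (from 31.7 kb) it was -0.08, with Melk (63.8 kb) called higher and Ttk (37.7 kb) lower. Spearman's rho between span and the difference was -0.63 in the KO and -0.60 in the WT over 33 genes. Over 23477 rows with a span it was -0.25 in each genotype. Gene span is shared with other properties such as transcript length, and its part in the result was not tested.

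**Figure D4:**
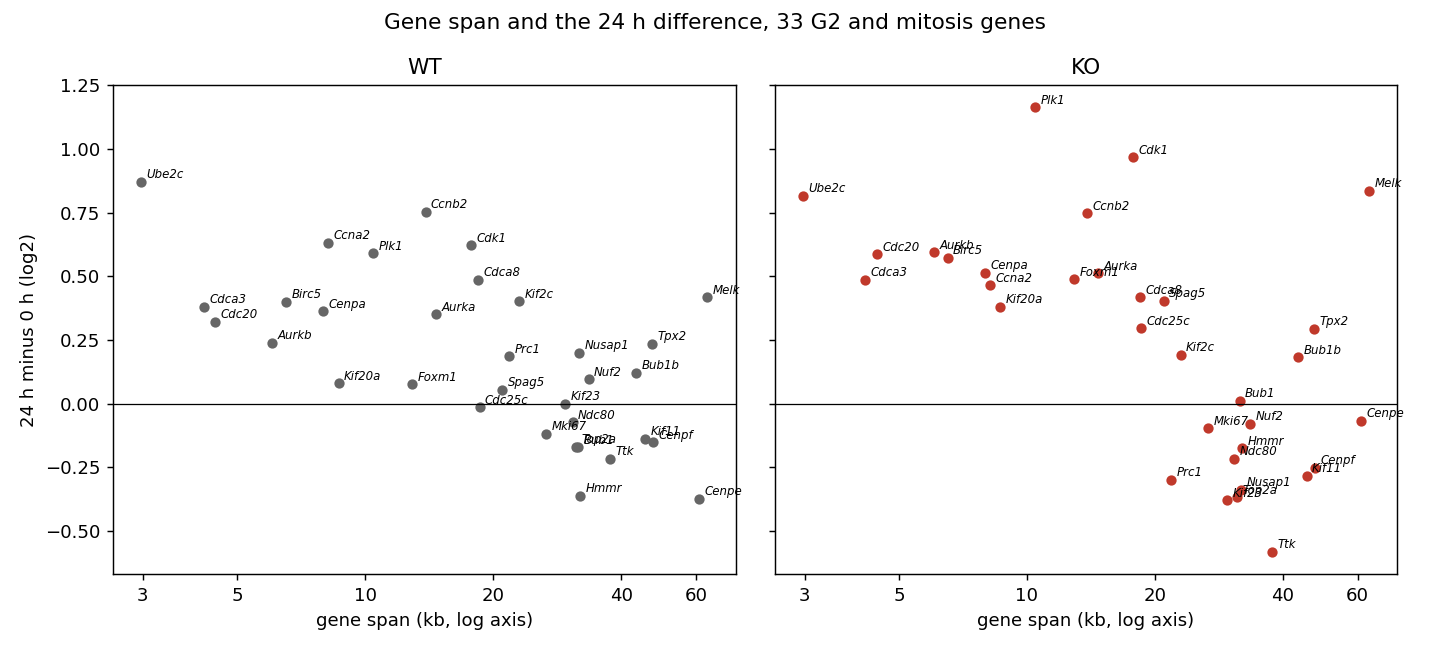
Difference between 24 h and 0 h (log2, vertical axis) against gene span in kb (log axis) for the 33 genes, in WT (left) and KO (right). Genes of up to 13.9 kb lie above 0 in both genotypes, and those from 31.7 kb up lie on both sides of it.

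Other cell cycle genes were read from lists of related function. The comparison of 24 h with 0 h in the KO, used for each list here, called 3.09% of all rows higher and 6.47% lower. Of 52 further mitotic genes, 7 rose and 1 fell in it. Spc24, a subunit of the NDC80 complex, rose by 0.67 (adjusted p = 0.00192), Tacc3, a spindle stabiliser, by 0.75, Cks1b, a CDK-binding protein, by 0.71 and Kif22, a chromosome-arm kinesin, by 0.58. Kif18a, a kinesin that trims spindle microtubules, fell by 0.49. The median over the 52 genes was 0.10. The DNA replication list stood further from 0, with 23 of 39 genes higher, none lower and a median of 0.47. Mcm2, a subunit of the replicative helicase, rose by 1.07, Tk1, the thymidine kinase of S phase, by 1.08, Rfc5, of the clamp loader, by 0.66 and Chaf1b, of the histone chaperone CAF-1, by 0.93, with adjusted p from 0.00135 to 0.00162. Of 22 regulators of G1 and the start of S phase, 5 rose and 3 fell. Those that rose were E2f7 and E2f8, which repress E2F targets late in S phase, E2f1, Cdk4 and Ccnd1. Those that fell were Rbl2, the p130 pocket protein of the DREAM complex, by 0.53, Lin9, a subunit of the MuvB core, by 0.47, and Rb1 by 0.62. Of 15 subunits of the anaphase-promoting complex, Anapc11 rose by 0.54 and Cdc27 fell by 0.73. With 9.56% of all rows called in either direction, these calls are not read as a change of the complex. The others of the mitotic list that rose were Ncaph, Cenpn and Kif18b. In WT skin limma called no gene of these lists at 24 h, with 11 mitotic, 4 replication, 4 G1 and 4 anaphase-promoting complex genes at an unadjusted p under 0.05. The WT medians were 0.07 for the mitotic and 0.02 for the replication genes. The replication genes started lower in the KO. Unstressed, 34 of 39 were below the WT, with a median of -0.20, none called by limma and 16 at an unadjusted p under 0.05. These lists, like that of the G2 and mitosis genes, were drawn up with results of these data known.

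Part of a list of CDK inhibitors and p53 targets fell in the KO. Of 16 CDK inhibitors and p53 targets, 5 fell at 24 h against 0 h and Sfn rose. Over all rows that comparison called 6.47% lower and 3.09% higher. Cdkn1b, the CDK inhibitor p27, read -0.55, -0.64 and -0.34 at 24 h and 0.15, 0.71 and 0.46 at 0 h, so that it fell by 0.95 (1.93-fold, adjusted p = 0.00207). Trp53inp1, a p53 target, fell by 1.02 and Ccng1, Ccng2 and Sesn1 by 0.84, 0.68 and 0.59. In the WT at 24 h limma called none of the 16, with 2 at an unadjusted p under 0.05. At 6 h in the KO, when no gene of the G2 and mitosis list passed, 6 of these 16 genes had fallen and Sfn had risen. Over all rows 4.98% were called in either direction at 6 h. Cdkn1b fell by 1.002 at that time (adjusted p = 0.0059) and read -0.51, -0.70 and -0.47. Of the 22 G1 regulators, Rbl2 and Lin9 had fallen at 6 h, by 0.61 and 0.48, and E2f7 had risen by 0.36. Cdc25b, a phosphatase that activates CDK1, was the only call of 52 further mitotic genes, lower by 0.46. Mcm2 was the only call of 39 replication genes, higher by 0.55. Single calls in lists of that size are not read as a change of the list. Of 6 analyses that left out an array, Rbl2 was called in 6, Cdc25b in 5, Lin9 in 3, and Mcm2 and E2f7 in 1. The replication list then had a median of 0.14 and the further mitotic genes -0.22. In the WT at 6 h limma called none of these genes. At an unadjusted p under 0.05 there were 20 of 39 replication genes, with a median of -0.27, 5 further mitotic genes and 2 CDK inhibitors or p53 targets.

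**Figure D5:**
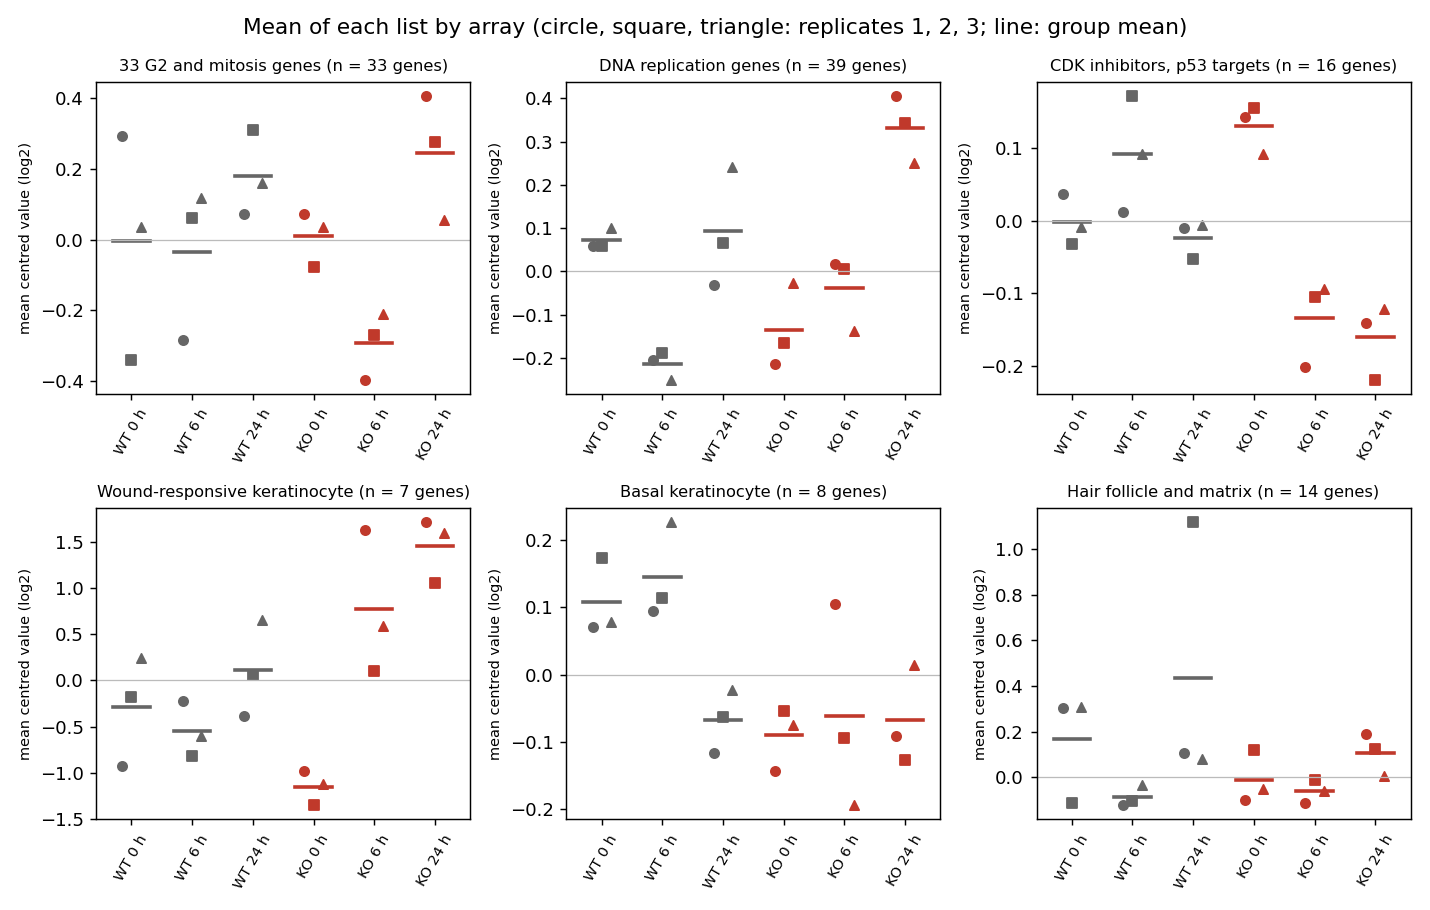
Mean centred log2 value of 6 gene lists in each array, by group; lines are group means of 3 arrays. The G2 and mitosis genes dip in the KO at 6 h, the replication genes dip in the WT at 6 h, and the wound-responsive keratinocyte list climbs in the KO from 0 h to 24 h.

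Markers of the cells in the sheet moved with the same arrays in part. The 7 wound-responsive keratinocyte genes averaged -1.15 in the unstressed KO, 0.77 at 6 h and 1.45 at 24 h, with array values from 1.05 to 1.71 at 24 h. Of these, Krt6a, Krt6b, Krt16, S100a9 and Sprr1b rose at 24 h against 0 h (5 of 7), beside 3.09% of all rows called higher. In the WT, with means of -0.29, -0.55 and 0.11, limma called none, and none had an unadjusted p under 0.05 at 6 h or 24 h against 0 h (1 at 24 h against 6 h). The 8 basal keratinocyte genes, which include the keratins of the dividing layer, averaged -0.09 in the KO at 0 h and -0.07 at 24 h. Of these, Krt14 rose by 0.56 and Trp63 fell by 0.37, beside 9.56% of all rows called in either direction. The 14 hair follicle and matrix genes averaged 1.12 in replicate 2 of WT at 24 h, which also had the highest mean of the G2 and mitosis list among WT arrays at 24 h (0.31), and 0.11 and 0.08 in the others. In unstressed WT skin, where the G2 and mitosis list averaged 0.29, -0.34 and 0.04, the hair follicle genes averaged 0.30, -0.11 and 0.31 and the 5 melanocyte genes 0.89, 0.04 and 0.22. Replicate 1, the highest there in the G2 and mitosis list, was thus also the highest in melanocyte genes, and replicate 2 was the lowest in all 3 of these lists. Dermal fibroblast genes ranked alike (0.08, -0.09 and 0.05). Replicate 1 was the lowest in wound-responsive keratinocyte (-0.93, -0.18 and 0.24), epidermal T cell (0.27, 0.68 and 0.70) and Langerhans cell genes (0.08, 0.34 and 0.42). It was also the lowest in the basal keratinocyte and the neutrophil and monocyte lists. In suprabasal genes replicate 2 was the lowest and replicate 3 the highest. In the KO at 24 h the hair follicle means ranged from 0.01 to 0.19, with a group mean of 0.11 against -0.01 at 0 h. Gata3 was the only one of the 14 genes called there, lower by 0.47, beside 6.47% of all rows called lower. That single call is not read as a change of the list. The 7 epidermal T cell genes averaged from -1.09 to -0.16 in KO arrays and from 0.15 to 0.74 in WT arrays, a mean lower in the KO at every time. Single genes were higher in the KO, 2 of 7 at 6 h and 1 of 7 at 24 h. Because rows are centred, a summed level and an absent marker cannot be given. The part of these cells in the differences described was not tested.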

How the data were processed

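Expression was measured on Affymetrix arrays from biotin-labelled cDNA, per the labels' protocols, in 18 arrays of epidermal sheets (6 groups of 3). The deposited table holds log2 values (base 2 was assumed, since a natural log cannot be told apart) with the median of each row at 0 within 1e-06. Steps not given in the sources used here include background correction, summarisation and normalisation. Array medians lay between -0.0187 and 0.0107. The number of arrays limits the precision, and depth does not apply.

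Of 33793 rows, 23521 named 1 gene in the platform annotation, 1814 named several and 8458 none. The rows naming 1 gene were fitted with limma 3.58.1 (R 4.3.3), with a mean for each group, no covariate, 12 residual and 2.76 prior degrees of freedom, two-sided tests, and Benjamini-Hochberg adjustment over all 23521 rows at 0.05 in each of 13 comparisons. For a gene with several rows the row with the largest SD was to be used, but no G2 and mitosis gene had more than 1. Folds are 2 to the power of the difference. An exact permutation test of 3 arrays against 3 cannot go below 0.1 and was not used. The fit was tested on simulated data with noise drawn separately for each row and array. Shifts that many genes of an array share were not simulated.

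The G2 and mitosis genes and the other lists were chosen with earlier results of these data known. The text names all of the former, up to 4 genes of each other pathway list per comparison by smallest p, and the 10 genes most correlated with the list's mean. Others (Ccnd1, Cdk4, E2f1, Rb1, Ncaph, Cenpn, Kif18b, Mcm5, Ccng1, Ccng2, Sesn1, Sfn, Krt14, Trp63 and Gata3 among them) were named after their values were seen. Gene span was chosen after seeing the data.

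Alternatives were quantile normalisation again, arrays shifted to 1 median, array weights, robust moderation, groups fitted alone, all rows, the mean over a gene's rows, the replicate number or the label number as a block, either class of label numbers alone, and each array left out. A setting without replicate 2 of WT at 0 h and replicate 1 of WT at 6 h was added after seeing the data. Replicate numbers do not pair the arrays: of 45 pairs with the same number, 9 correlated above 0.1 in their deviations from group means (range -0.46 to 0.25). Promoter windows and gene spans are from RefSeq, GRCm38.p6; no window was at hand for Ccna2, Cdc25c, Foxm1, Aurkb, Tpx2 and Kif20a.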

Additional observations from a re-analysis of the deposited data

Results flagged for a closer look

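The 7 genes below belong to the other cell cycle lists, and their responses at 6 h differed between the genotypes by limma's interaction test, which called 0.731% of all rows. All values are differences of the log2 response, KO minus WT. Each call was lost without some arrays: of the 12 analyses that left out an array, Mcm2 was called in 6, Mcm3, Clspn and Cdkn1b in 4, Rbl2 in 3, and Mcm5 and Mcm6 in 2.

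Of 39 replication genes, 5 were called, all more positive in the KO, and 34 were not. Mcm2, Mcm3, Mcm5 and Mcm6, subunits of the replicative helicase, differed by 1.13, 1.07, 1.30 and 0.76 (limma, adjusted p = 0.0241, 0.0397, 0.0471 and 0.0454). For Mcm2 the KO arrays went from -0.66, -0.46 and -0.48 to 0.16, 0.22 and -0.32 at 6 h. The WT arrays went the other way, from -0.08, 0.16 and 0.24 to -0.43, -0.43 and -0.56, so that each array at 6 h lay above those at 0 h in the KO and below them in the WT. Clspn, the checkpoint adaptor claspin, differed by 0.69 (adjusted p = 0.0397).

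Of 16 CDK inhibitors and p53 targets, 1 was called: Cdkn1b, the CDK inhibitor p27, differed by -1.06 (limma, adjusted p = 0.0386). Its KO arrays went from 0.15, 0.71 and 0.46 to -0.51, -0.70 and -0.47 at 6 h, without overlap. Its WT arrays were 0.40, -0.09 and -0.03 unstressed, and 0.07, 0.16 and 0.22 at 6 h. Of 22 regulators of G1 and the start of S phase, 1 was called: Rbl2, the pocket protein p130, differed by -0.76 (adjusted p = 0.0330).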

How the results depend on the processing

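All 39 calls among the G2 and mitosis genes kept their direction in every alternative run, and 19 kept their call under each array left out; of 69 calls named from the other pathway lists the numbers were 69 and 38. The cause of the moves below was not tested. With each array left out in turn, the count called at 24 h against 0 h in the KO ranged from 6 to 10, at 24 h against 6 h in the KO from 3 to 15, at KO against WT at 6 h from 0 to 1 (Bub1b, without replicate 1 of WT at 6 h) and for the genotype difference in the 6 h response from 0 to 1 (Prc1, without replicate 1 of WT at 0 h). The median at 24 h against 0 h in the WT ranged from -0.0092 to 0.36. Array weights gave 1 call for KO against WT at 6 h (Foxm1), 2 for 6 h against 0 h in the KO (Ccna2, Kif11) and 1 for 24 h against 0 h in the WT (Cenpa). Quantile normalisation again gave 3 calls for 24 h against 0 h in the WT (Cdk1, Ube2c, Cenpa, all higher) and 8 for 24 h against 6 h in the KO. Groups fitted alone gave 4 calls for 6 h against 0 h in the KO (Ccna2, Kif11, Kif23, Kif2c) and 1 for 24 h against 6 h in the KO (Melk). With the label number as a block, 24 h against 6 h in the KO gave 3 calls (Cdk1, Plk1, Cenpa). Within the arrays numbered from 3000 up, the calls were 1 for 6 h against 0 h in the KO (Prc1), 1 for 24 h against 0 h in the WT (Hmmr, lower) and 0 for 24 h against 6 h in the KO; KO at 6 h, WT at 0 h and WT at 6 h hold 1 array each there, whose spread is taken from the remaining groups. The medians there were -0.32 for KO against WT at 0 h, -0.61 for 6 h against 0 h in the WT, -0.10 for 24 h against 0 h in the WT, 0.48 for 24 h against 6 h in the WT, and 0.16 and 0.37 for the genotype differences in the 6 h and 24 h responses. Within those numbered below 3000, where KO at 0 h holds 1 array, KO against WT at 6 h gave 2 calls (Foxm1, Top2a), and the medians were 0.23 for KO against WT at 0 h, 0.25 for 6 h against 0 h in the WT and -0.49 for the genotype difference in the 6 h response. Without replicate 2 of WT at 0 h and replicate 1 of WT at 6 h together, KO against WT at 6 h gave 2 calls (Bub1b, Kif2c), 6 h against 0 h in the KO gave 2 (Bub1b, Kif11), and the median at 24 h against 0 h in the WT was -0.0092. With the replicate block, whose numbers do not pair the arrays, the calls were 11 at 24 h against 0 h in the KO, 10 at 24 h against 6 h in the KO and 13 for the mean of both genotypes, and 0 in the other comparisons.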
